A study of Mus musculus with 33 samples.

Results

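The genes described here are 5 transcription regulators of the hair follicle, Hoxc13, Lhx2, Tbx1, Sox9 and Hr, taken by name from a mouse expression table of 15273 genes. All 5 of the 5 listed genes were in the table, and all 5 passed the filter on low values. Their levels were set in cells called HFC by the labels against thymic epithelial cells (TEC), the stroma in which T cells develop. The series is concerned with the control of Foxn1, the forkhead gene that both the thymic epithelium and the hair follicle need.

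RNA was measured in 33 libraries by bulk MARS-seq, a method that reads transcript 3' ends and counts molecules by unique molecular identifiers (UMIs). The 3 HFC libraries came from 4-week-old C57BL/6 mice of genotype Foxn1.EGFP positive. These cells were released with trypsin from shaved back skin and sorted as GFP positive. The 30 TEC libraries came from wild type C57BL/6 mice. Of these, 4 were embryonic (2 at E15 and 2 at E17), 6 were from day 6 (2 each titled mTEC1, mTEC2 and mTEC4) and 20 were from 6-week-old mice (4 each titled cTEC, mTEC1, mTEC2, mTEC3 and mTEC4). HFC and TEC therefore differ in tissue, reporter genotype, age and dissociation at once, and these cannot be told apart. No label ties a library to its own animal, so each p-value reflects the scatter of these libraries alone, and that scatter may be technical. In bulk RNA, fewer cells of a type and less RNA per cell cannot be told apart.

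Library totals ran from 520844 to 679168 UMIs in HFC, from 1007370 to 1732688 in embryonic TEC, from 287189 to 638343 at day 6 and from 98670 to 1369629 at 6 weeks. The 3 HFC libraries carried an epidermal and follicular programme: the summed level of the outer root sheath and stem cell list was 56933 to 86312 CPM (UMIs per 1000000), against at most 9213 CPM in any TEC library, and the thymic epithelial list summed to 232 to 423 CPM in HFC, against at least 9017 CPM in every TEC library. Thymocyte markers summed to at most 2.94 CPM and endothelial markers to at most 4.42 CPM in HFC. In TEC these sums reached 633 CPM and 4062 CPM, both at day 6. Hair shaft and inner root sheath genes summed to 238, 1530 and 717 CPM in HFC libraries 1, 2 and 3. They summed to 85.5 to 751 CPM in 6-week TEC, a range that holds HFC libraries 1 and 3. Cornified keratinocyte genes summed to 18170, 11674 and 11542 CPM in HFC libraries 1, 2 and 3. In 6-week TEC they summed to 74.6 to 14608 CPM, a range that holds HFC libraries 2 and 3. At 6 weeks the titles did not follow the markers of the populations they name. Trpm5, the taste and tuft cell channel, stood at 1689 to 2026 CPM in the libraries titled 195 mTEC2, 195 mTEC3, 195 mTEC4 and 196 cTEC. The cortical protease Prss16 stood at 3453 to 7678 CPM in the libraries titled 196 mTEC1, mTEC2, mTEC3 and mTEC4. Levels of the 20 libraries are therefore described as 1 age, and single libraries are called by their titles. The fit still took the titles as groups, with the age as their mean. Its spread, shared by all comparisons, therefore holds differences between unlike libraries of the same title.

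The hair follicle is built and rebuilt by epithelial cells whose fate is set by a small network of transcription factors. Hoxc13 is a homeodomain factor needed for hair keratin expression, and Foxn1 is among its targets in mouse skin. Lhx2, a LIM homeodomain factor, and Sox9, an HMG box factor, act in stem cells and the outer root sheath, Tbx1 is a T-box factor that also patterns the pharyngeal pouches from which the thymus arises, and Hr (Hairless) is a nuclear receptor corepressor without which mice lose their coat.

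The genes lie on 5 different chromosomes in GENCODE M21 on GRCm38. Hoxc13 spans chromosome 15, 102921103 to 102928814, and Lhx2 spans chromosome 2, 38339281 to 38369733, both on the plus strand. Tbx1 spans chromosome 16, 18580979 to 18590671, on the minus strand. Hr spans chromosome 14, 70552212 to 70573548, and Sox9 spans chromosome 11, 112782224 to 112787760, both on the plus strand. Foxn1 lies on the same chromosome as Sox9, at 78357577 to 78386558 on the minus strand. Lhx2 overlaps the antisense genes Gm27197 and Gm13584, neither of which is in the table. Whether counting used strand is not given in the sources used here, so Lhx2 values may hold reads of these genes.

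The upstream sequences of Lhx2 and Tbx1, the 2 members matched in the RefSeq table, are shown beside that of Foxn1, which was lower in HFC than in embryonic and day 6 TEC while both members were higher. They are the 250 bases before an annotated start (RefSeq, GRCm38.p6), written 5′ to 3′ on the gene's strand, and RefSeq gives Tbx1 a start at the GENCODE gene end and another 1772 bases inside the gene. Capitals mark matches, on either strand, to 6 short motifs: TAATTA for LIM homeodomain factors, GGTGTGA for T-box factors, AGGTCA for nuclear receptor half-sites, AACAAT for SOX factors, CAATAAA for HOX13 factors and GACGC for Foxn1.
Lhx2, chr2:38339031-38339280, plus strand: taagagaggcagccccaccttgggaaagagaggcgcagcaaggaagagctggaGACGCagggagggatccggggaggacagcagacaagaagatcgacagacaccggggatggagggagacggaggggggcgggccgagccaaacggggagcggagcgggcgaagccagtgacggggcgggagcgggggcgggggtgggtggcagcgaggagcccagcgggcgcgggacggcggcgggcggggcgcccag
Tbx1, chr16:18590672-18590921, minus strand: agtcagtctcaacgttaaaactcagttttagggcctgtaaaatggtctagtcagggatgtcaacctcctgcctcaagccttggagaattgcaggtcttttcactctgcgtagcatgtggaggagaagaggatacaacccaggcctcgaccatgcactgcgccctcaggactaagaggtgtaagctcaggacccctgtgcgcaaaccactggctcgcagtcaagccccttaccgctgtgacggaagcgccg
Tbx1 inner start, chr16:18588900-18589149, minus strand: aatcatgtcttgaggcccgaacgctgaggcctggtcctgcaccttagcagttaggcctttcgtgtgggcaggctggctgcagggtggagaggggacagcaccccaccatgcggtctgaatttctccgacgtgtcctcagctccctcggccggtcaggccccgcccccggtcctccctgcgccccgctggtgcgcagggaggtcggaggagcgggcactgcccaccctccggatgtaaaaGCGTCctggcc
Foxn1, chr11:78386609-78386858, minus strand: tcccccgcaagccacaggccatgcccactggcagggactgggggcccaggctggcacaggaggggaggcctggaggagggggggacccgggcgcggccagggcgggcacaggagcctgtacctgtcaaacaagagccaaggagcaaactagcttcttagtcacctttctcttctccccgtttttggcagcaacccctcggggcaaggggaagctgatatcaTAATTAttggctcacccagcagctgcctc
GACGC occurred once upstream of Lhx2 and, as its reverse complement GCGTC, once upstream of the inner Tbx1 start. This motif is held by 22.6% of the 32851 RefSeq upstream windows of the same length. TAATTA occurred once upstream of Foxn1 and is held by 4.84% of the windows. The outer Tbx1 start, like a second Lhx2 start 12027 bases inside the gene that is not shown, had no match to any of the 6 motifs, of which the others are held by 3.33% (GGTGTGA), 4.20% (CAATAAA), 9.42% (AACAAT) and 14.0% (AGGTCA) of windows. G and C made up 72.8% of the Lhx2 window and 54.4% of the outer Tbx1 window, beside a median of 52.4% over all windows. A match is a run of letters and not a measured binding site.

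All 5 regulators were higher in HFC than in TEC of every age by limma with Benjamini-Hochberg adjustment over 14183 genes. Beside 5 of 5 members, 5.37% of all genes tested were called higher in HFC against embryonic TEC, 4.39% against day 6 TEC and 4.67% against 6-week TEC. Calls in either direction made up 19.9%, 20.0% and 24.0% of genes in the same order, and those lower in HFC made up 14.5%, 15.6% and 19.3%. The 3 comparisons share the HFC libraries and are not independent of each other. The members were chosen with earlier results of these data known, so 5 of 5 beside these shares is a description and not a test. The median log2 difference of the 5 members against embryonic TEC was 6.29, beside -0.59 over all genes, or 7.87 with the members that had no embryonic UMI set to their lower bound. It was 6.10 against day 6 TEC, beside -0.62, and 6.16 against 6-week TEC, beside -0.75.

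**Figure D1:**
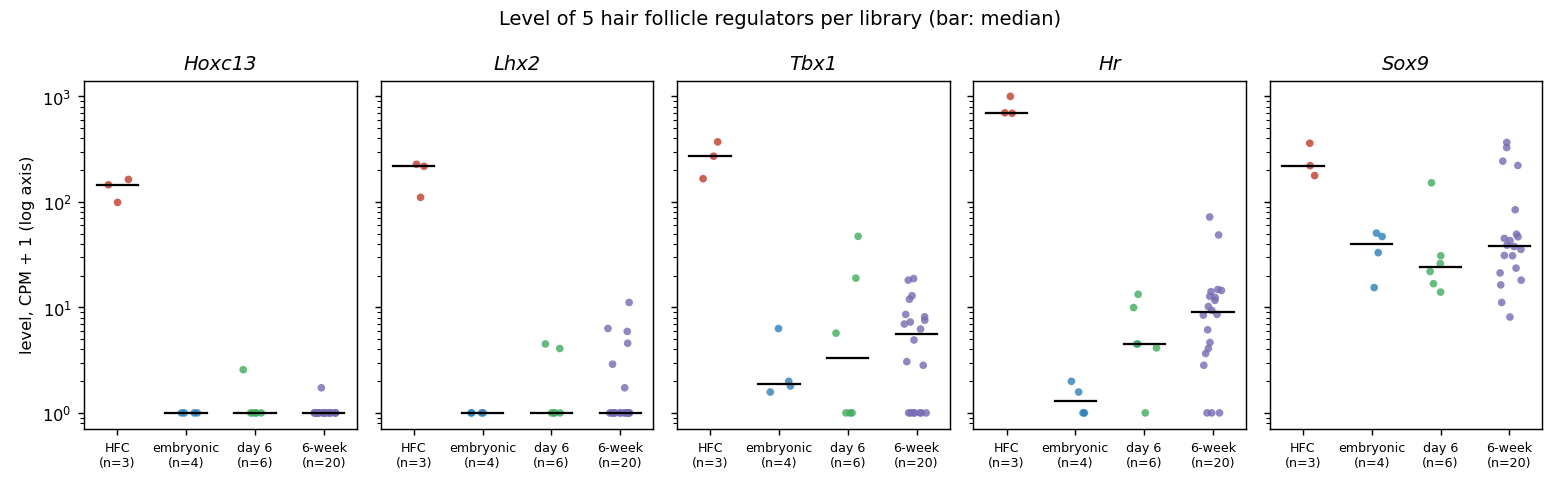
Level of each regulator in every library, as CPM plus 1 on a log axis, for HFC (n = 3), embryonic (n = 4), day 6 (n = 6) and 6-week TEC (n = 20), with each group's median as a bar. Points of Hoxc13, Lhx2, Tbx1 and Hr in HFC lie above every TEC point, and for Sox9 4 of the 20 6-week libraries lie above the lowest HFC point.

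Hoxc13 stood at 97.9, 162 and 144 CPM in HFC libraries 1, 2 and 3. It had no UMI in any of the 4 embryonic TEC libraries, 1 UMI among the 6 day 6 libraries (1.57 CPM in the library titled mTEC1 1) and 1 UMI among the 20 6-week libraries (0.730 CPM in the library titled 189 mTEC4). HFC and TEC did not overlap: the 30 TEC libraries together held 2 Hoxc13 UMIs among 18367603, against 253 among 1841009 in HFC. The log2 difference was 6.23 ± 0.32 (SE) against 6-week TEC, with an adjusted p of 1.14e-14 in limma. Pooled over libraries, HFC was at least 235-fold higher than embryonic TEC at a floor of 3 UMIs over the group, and the 95% counting interval of that ratio began at 189. Against 6-week TEC the ratio was 1471, with a 95% counting interval from 262 to 58343, and it rests on the 1 UMI of that age. These intervals and floors cover counting error only. DESeq2 on the recovered UMIs did not call Hoxc13 against any age (adjusted p = 0.166 against embryonic, 0.245 against day 6 and 0.115 against 6-week TEC), with log2 differences of 8.25 to 10.4.

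Lhx2 stood at 109, 226 and 216 CPM in HFC libraries 1, 2 and 3. It had no UMI in the 4 embryonic libraries, 3 UMIs in 2 of the 6 day 6 libraries and 11 UMIs in 6 of the 20 6-week libraries, where the highest level was 10.1 CPM. The groups did not overlap, and the lowest HFC library was above the highest TEC library. The log2 difference was 6.16 ± 0.54 against 6-week TEC (limma, adjusted p = 8.82e-10) and 6.15 ± 0.62 against day 6 TEC (limma, adjusted p = 1.94e-08). Pooled HFC was at least 324-fold higher than embryonic TEC at the floor, with a 95% counting interval that began at 262, and 185-fold higher than 6-week TEC, with a 95% counting interval from 102 to 373.

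Tbx1 stood at 165, 270 and 370 CPM in HFC libraries 1, 2 and 3. In embryonic TEC it stood at 0.801 and 0.577 CPM at E15 and at 5.30 and 0.993 CPM at E17. The lowest, median and highest values were 0, 2.35 and 46.2 CPM at day 6 and 0, 4.57 and 17.8 CPM at 6 weeks. HFC did not overlap any age, although Tbx1 had UMIs in all 4 embryonic, 3 of the 6 day 6 and 13 of the 20 6-week libraries. The log2 difference was 6.29 ± 0.93 against embryonic TEC (limma, adjusted p = 1.28e-05), 5.50 ± 0.86 against day 6 TEC (limma, adjusted p = 2.95e-05) and 5.70 ± 0.76 against 6-week TEC (limma, adjusted p = 1.65e-06). The highest thymic levels, 46.2 and 17.9 CPM, stood in the 2 day 6 libraries titled mTEC2, next to 17.8 CPM in the 6-week library titled 196 mTEC4.

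Sox9 stood at 177, 359 and 219 CPM in HFC libraries 1, 2 and 3. It was the only member with UMIs in every TEC library. Embryonic levels were 32.0 and 14.4 CPM at E15 and 46.0 and 49.6 CPM at E17. Day 6 libraries ran from 13.0 to 151 CPM around a median of 23.0, and 6-week libraries from 7.11 to 365 CPM around a median of 37.3. HFC lay above all embryonic and day 6 libraries and overlapped the 6-week range. The log2 difference was 2.83 ± 0.92 against embryonic TEC (limma, adjusted p = 0.0278), 3.0 ± 0.85 against day 6 TEC (limma, adjusted p = 0.0117) and 2.37 ± 0.74 against 6-week TEC (limma, adjusted p = 0.0202). Each of these calls was lost when certain single libraries were left out, the day 6 call only without HFC library 2. Without HFC library 1 the log2 difference rose to 3.05 against embryonic and 2.59 against 6-week TEC, yet neither was called. Against embryonic TEC the adjusted p in limma was 0.0565, 0.110 and 0.0690 without HFC library 1, 2 or 3, 0.0963 without E15 library 2, and 0.0692 and 0.0609 without E17 library 1 or 2. Against day 6 TEC it was 0.0682 without HFC library 2, and against 6-week TEC it was 0.0565, 0.123 and 0.0734 without HFC library 1, 2 or 3. The direction held in each, with log2 differences from 2.08 to 3.38.

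The 4 6-week libraries above the lowest HFC library in Sox9 were titled 195 mTEC2 (365 CPM), 196 cTEC (327 CPM), 195 mTEC3 (242 CPM) and 195 mTEC4 (220 CPM). The other 16 6-week libraries ran from 7.11 to 83.3 CPM. The 4 are the same libraries in which Trpm5 stood at 1689 CPM or more and Avil, which encodes the actin regulator advillin of tuft cells, at 2637 to 3393 CPM. Among day 6 libraries the highest Sox9 level, 151 CPM, stood in mTEC2 library 1, with Trpm5 at 505 CPM, while mTEC2 library 2 had Sox9 at 29.9 CPM and Trpm5 at 451 CPM. Over the 20 6-week libraries the Pearson correlation of Sox9 with Trpm5 on log2 values was 0.79, as a description over libraries of unequal depth that share the numbers in their titles. In HFC Trpm5 had no UMI, and 6 of the 10 listed tuft cell genes had a UMI, summing to 35.3 to 64.0 CPM. The part of tuft cells in the 6-week Sox9 levels was not tested.

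Hr stood at 691, 1000 and 698 CPM in HFC libraries 1, 2 and 3. In embryonic TEC it had 2 UMIs in all, 1 in E15 library 2 (0.577 CPM) and 1 in E17 library 2 (0.993 CPM). The lowest, median and highest values were 0, 3.49 and 12.3 CPM at day 6 and 0, 7.96 and 70.9 CPM at 6 weeks. No TEC library reached the HFC range, with the lowest HFC library at 691 CPM. The log2 difference was 8.54 ± 1.0 against embryonic TEC (limma, adjusted p = 2.73e-07), 7.10 ± 0.92 against day 6 TEC (limma, adjusted p = 1.65e-06) and 6.53 ± 0.81 against 6-week TEC (limma, adjusted p = 5.09e-07). The largest thymic levels were 70.9 CPM from 7 UMIs in the library titled 195 mTEC1 and 47.6 CPM from 8 UMIs in the library titled 195 cTEC. Both libraries held fewer than 200000 UMIs, and Krt10, a keratin of differentiated keratinocytes, stood at 1652 and 1987 CPM in them, close to the 1816 and 1702 CPM of HFC libraries 2 and 3. The library titled 191 mTEC4, also under 200000 UMIs, had Krt10 at 1531 CPM but Hr at 13.5 CPM from 2 UMIs. Over the 20 6-week libraries the Pearson correlation of Hr with Krt10 on log2 values was 0.57. Whether keratinized medullary cells carry the thymic Hr UMIs was not tested.

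**Figure D2:**
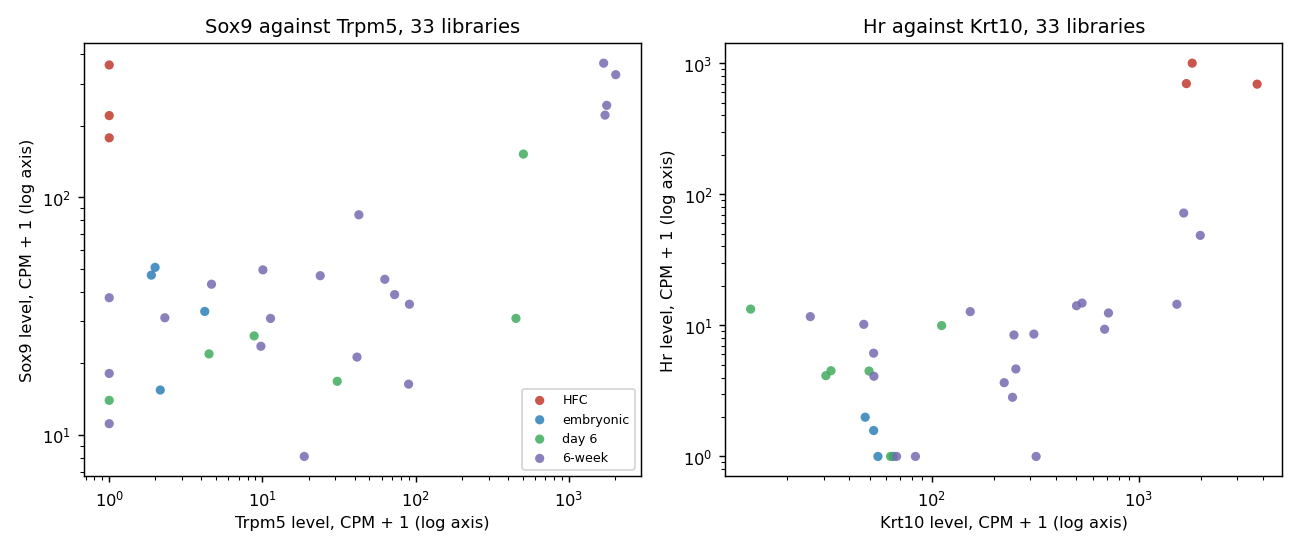
Left, Sox9 against Trpm5, and right, Hr against Krt10, in 33 libraries, each as CPM plus 1 on log axes and coloured by group (HFC, embryonic, day 6 and 6-week TEC). On the left 4 6-week libraries at the far right reach the Sox9 levels of HFC, which has no Trpm5 UMI. On the right HFC stands above all TEC libraries in Hr, including those whose Krt10 level is as high.

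In the fit, 4 of the 5 members were among the 15 genes most raised in HFC against 6-week TEC. Among 14183 genes ranked by this log2 difference, Hr had rank 5, Hoxc13 rank 9, Lhx2 rank 10, Tbx1 rank 15 and Sox9 rank 332. Fitted differences of genes with few or no UMIs depend on the added constant of 1, which holds down those of Hoxc13 and Lhx2. Against embryonic TEC, Hr had rank 11, Tbx1 rank 44 and Sox9 rank 475. Hoxc13 and Lhx2 had no embryonic UMI and are not ranked there, and their log2 differences were at least 7.87 and 8.34 at the floor of 3 UMIs. All 3 HFC libraries lay above every embryonic library in 11.7% of tested genes and above every day 6 library in 5.78%, and in 5 of the 5 members in both cases. They lay above every 6-week library in 3.02% of genes and above all 30 TEC libraries in 2.39%, and in 4 of the 5 members in both cases, Sox9 being the exception.

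**Figure D3:**
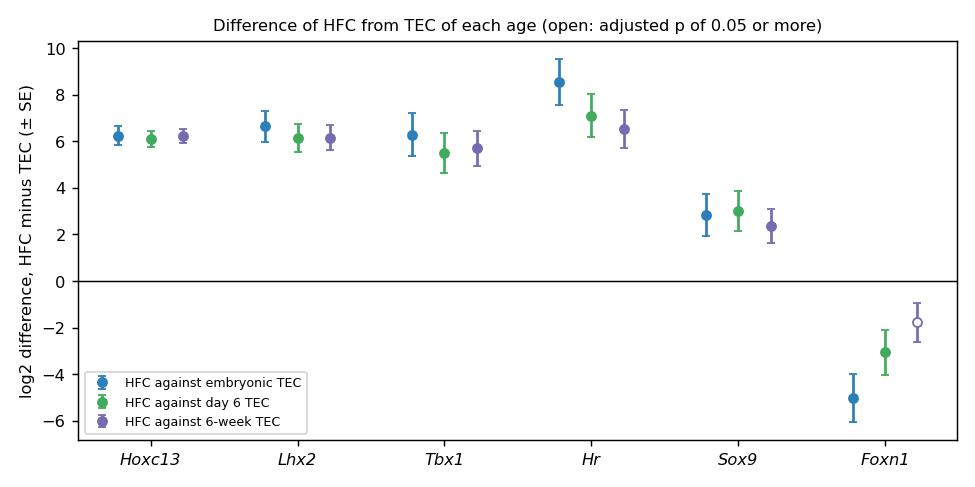
Log2 difference, HFC minus TEC, with its standard error, for the 5 regulators and Foxn1 against embryonic, day 6 and 6-week TEC, filled where the limma adjusted p is below 0.05. All 15 points of the regulators are filled and above 0, with Sox9 at 2.37 to 3.0, while Foxn1 lies below 0 and is open against 6-week TEC.

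Foxn1, the gene whose reporter was used to sort HFC, ran the other way. It stood at 11.5, 26.5 and 36.8 CPM in HFC libraries 1, 2 and 3, against 547 to 1065 CPM in embryonic, 47.8 to 434 CPM in day 6 and 10.1 to 313 CPM in 6-week TEC. The ranges overlapped only at 6 weeks, where Foxn1 ran from 10.1 to 33.2 CPM in the 5 libraries numbered 195 and stood at 15.9 CPM in 196 cTEC, while the other 14 libraries held at least 60.7 CPM. The log2 difference was -5.02 against embryonic TEC (limma, adjusted p = 0.000715), -3.07 against day 6 TEC (limma, adjusted p = 0.0219) and -1.76 against 6-week TEC (limma, adjusted p = 0.126). The day 6 call was lost with median of ratios scaling (adjusted p = 0.0643), in edgeR (0.0762) and in limma without HFC library 1 (0.130) or 2 (0.0585), and DESeq2 called the 6-week difference (0.046).

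The 3 HFC libraries differed from each other beyond counting error, at a chi-square of 4.54 to 7.63 per degree of freedom. HFC library 1 was lowest for all 5 regulators and for Foxn1. For Lhx2, exact (Clopper-Pearson) 95% counting intervals were 82.9 to 142 CPM in library 1, 191 to 266 CPM in library 2 and 183 to 254 CPM in library 3, so library 1 stood apart. For Hr, library 2 stood apart, at 924 to 1080 CPM against 622 to 766 and 637 to 764 CPM in libraries 1 and 3. Library 1 also had the lowest level of Krt27, an inner root sheath keratin, at 23.0 CPM against 437 and 209 CPM in libraries 2 and 3, and the highest level of Krt10, at 3742 CPM. The part of cell composition in these differences was not tested.

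Among TEC of different ages no regulator passed the test. Of all genes tested, 14.5% were called between embryonic and 6-week TEC, 9.02% between day 6 and 6-week TEC, 3.50% between day 6 and embryonic TEC and 0.0141% between E17 and E15 TEC. The nearest to a call was Hr. Its embryonic minus 6-week log2 difference was -2.02 ± 0.71 (limma, adjusted p = 0.0557), with embryonic levels of at most 0.993 CPM against a 6-week median of 7.96 CPM. The same difference passed in 12 of the 36 alternatives run, with adjusted p from 0.00127 to 0.224 over all of them. Among those that passed were edgeR (0.0102) and DESeq2 (0.00127) on the recovered UMIs, and limma with the replicate block (0.0268) or with 1 group per age (0.036). For the other 4 members the embryonic minus 6-week log2 differences lay between -0.59 and -0.03, with adjusted p from 0.528 to 0.966 in limma. Between E17 and E15, 2 genes were called by limma and 154 had an unadjusted p below 0.05, none of them a member. On the recovered UMIs edgeR called 0 genes and DESeq2 24, and limma fitted to the E15 and E17 libraries alone called 505. The count therefore moved both with the tool and with the libraries fitted.

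The genes whose levels were most like each member were taken by Pearson correlation of log2 values over all 33 libraries, where the gap between HFC and TEC sets most of the likeness. Nearest to Hoxc13 were Rnase12 (0.98), Cpsf4l (0.97), S1pr5 (0.95), Fam83a (0.95) and BC006965 (0.94). Nearest to Lhx2 were Atp6v0a4 (0.93) and Hoxc13 itself (0.92), then Rnase12 (0.90), Fam83a (0.88) and Cpsf4l (0.87). Rnase12 stood at 42.2, 48.4 and 81.0 CPM in HFC, against at most 2.51 CPM in any TEC library. Nearest to Tbx1 were Dsg3 (0.87), the desmoglein of keratinocyte junctions, Tent5b (0.82), Krt6a (0.82), Tmprss7 (0.81) and Kcnk7 (0.81). Nearest to Hr were Ctsd (0.92), the lysosomal protease cathepsin D, Cebpb (0.90), Slc15a1 (0.90), Fam129b (0.88) and Evpl (0.87), and nearest to Sox9 were Ppp1r3b (0.82), Phldb3 (0.81), Rangap1 (0.80), Sbf1 (0.78) and Chdh (0.78).

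Within the 30 TEC libraries alone the neighbours changed. Hr was most like Prss8 (0.79), Ecm1 (0.78), Endou (0.75), Plk3 (0.75) and Cebpb (0.74), so Cebpb, a C/EBP factor of differentiating keratinocytes, was among the nearest on both counts. Sox9 was most like Kcns3 (0.87), Pnpla6 (0.86), Dio2 (0.84), Clec2g (0.84) and Chdh (0.84). Tbx1 was most like Pygm (0.66), the muscle form of glycogen phosphorylase, Col22a1 (0.65), Itgb1bp2 (0.65), Hjv (0.63) and Apobec2 (0.63). These correlations describe libraries of unequal depth. Hoxc13 and Lhx2 had UMIs in too few TEC libraries for such a list.

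Most close relatives of the members, chosen after values were seen, were not called. Of all genes tested, 4.67% were called higher and 19.3% lower in HFC against 6-week TEC. Of 6 Hoxc genes in the table, all tested, Hoxc13 was called higher in HFC against 6-week TEC, 5 were not called, and Hoxc10 and Hoxc11 had no UMI in HFC. Of 5 Lhx genes, of which 3 were tested, Lhx2 was called higher, and Lhx1, Lhx3, Lhx5 and Lhx6 had no UMI in HFC. Of 9 Tbx genes, of which 5 were tested, Tbx1 was called higher and 7 had no UMI in HFC. Among 13 Sox genes, of which 10 were tested, Sox9 and Sox13 were called higher, and Sox4 and Sox18 lower. Sox13 stood at 50.1 ± 30.4 CPM in HFC and 11.9 ± 9.57 CPM in 6-week TEC (SD, n = 3 and 20). With median of ratios scaling these calls kept their direction.

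Most other transcription regulators of the follicle did not pass the test. Of 62 listed genes 57 were in the table and 54 were tested. In HFC against 6-week TEC 12 were higher, 8 were lower and 34 did not pass, with a median log2 difference of 0.49 beside -0.75 over all genes. The higher genes made up 22.2% of the list beside 4.67% of all genes, and the lower ones 14.8% beside 19.3%. The counts were 14 higher and 5 lower against embryonic TEC, and 14 higher and 8 lower against day 6 TEC. The highest-ranked raised genes were Irx4 (4.70 ± 0.61, limma adjusted p = 1.07e-06) and Irx5 (4.68 ± 0.73), both Iroquois homeodomain factors. Barx2, a homeodomain factor (4.57 ± 0.72), Cebpb (2.93 ± 0.48) and Tfap2a, an AP-2 factor of the epidermis (3.80 ± 0.64), were next. Barx2 stood at 106, 148 and 152 CPM in HFC, against at most 17.8 CPM in any TEC library. Cebpb stood at 707, 604 and 582 CPM in HFC, against 33.7 to 314 CPM at 6 weeks.

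Among the lowered regulators Id3, an inhibitor of basic helix-loop-helix factors, stood at 49.9, 6.24 and 5.89 CPM in HFC against 88.1 to 1028 CPM at 6 weeks (log2 difference -4.61 ± 0.63, limma adjusted p = 2.79e-06). Cux1, a CUT homeodomain factor, averaged 11.4 ± 7.52 CPM in HFC and 114 ± 57.2 CPM in 6-week TEC (SD, n = 3 and 20; log2 difference -3.16 ± 0.49). Msx1, Ets2 and Foxp1 followed at -2.62 ± 0.77, -1.26 ± 0.38 and -1.93 ± 0.58 (limma, adjusted p from 0.0136 to 0.0157). Lef1, the Wnt effector of the hair matrix, had no UMI in HFC but was not called against 6-week TEC, which held 42 UMIs of it. It was called lower in HFC against day 6 TEC. With median of ratios scaling, which lifts the median of all genes by 0.30, no call of the list changed sign, Ets2, Rora and Runx3 no longer passed, and the count was 15 higher and 5 lower.

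**Figure D4:**
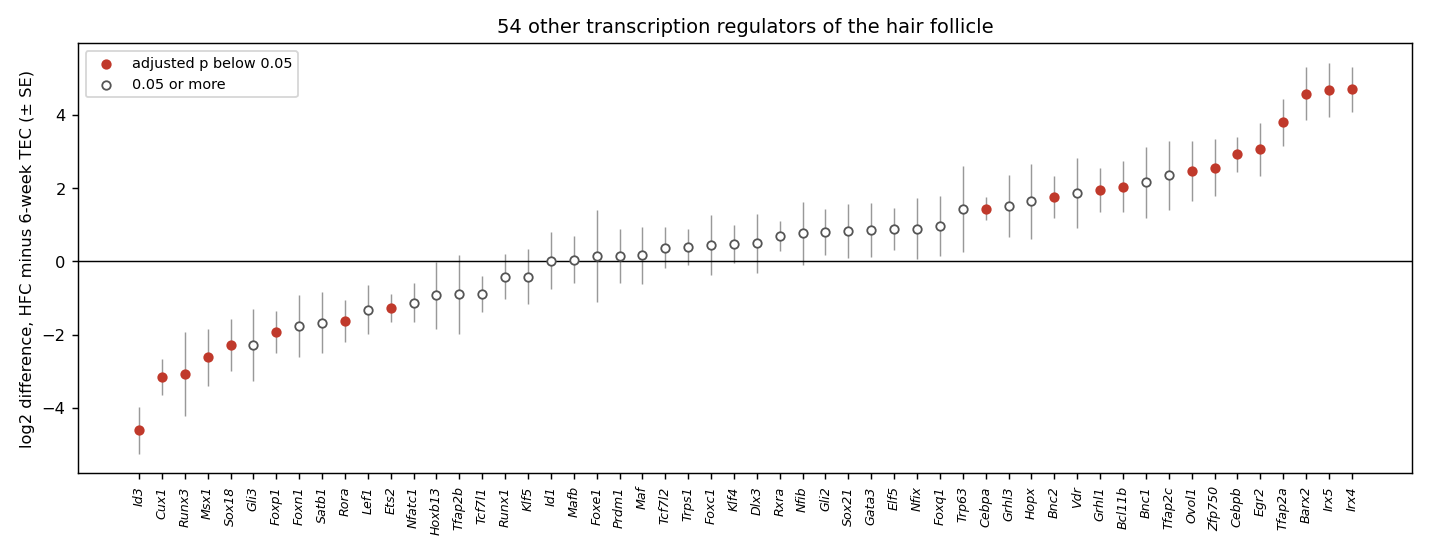
Log2 difference, HFC minus 6-week TEC, with its standard error, for 54 other transcription regulators of the hair follicle in ascending order, filled where the limma adjusted p is below 0.05. Irx4, Irx5 and Barx2 are at the high end near 4.7, Id3 is at the low end at -4.61, and 34 genes are open.

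No gene of the pharyngeal pouches and thymus organogenesis other than Tbx1 was called higher in HFC, at any age of TEC. Of 14 listed genes 13 were in the table and 12 were tested. In HFC, beside Tbx1, which was higher, 10 were lower against embryonic TEC, 8 against day 6 TEC and 9 against 6-week TEC. These lower genes made up 83.3%, 66.7% and 75% of those tested, beside 14.5%, 15.6% and 19.3% of all genes. The median log2 difference against 6-week TEC was -3.95, or -4.51 with the 7 genes that had no HFC UMI at their bound, beside -0.75 over all genes. The 3 HFC libraries held no UMI of Pax9 or Isl1, factors of pouch and thymus development. At a floor of 3 UMIs over the group, HFC was at least 34.8-fold lower than 6-week TEC for Pax9 and at least 40.6-fold lower for Isl1. Pax1 also had none, against 224 ± 274 CPM in 6-week TEC (SD, n = 20). With median of ratios scaling the count against 6-week TEC was 8 lower, with Tbx1 again the raised gene.

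**Figure D5:**
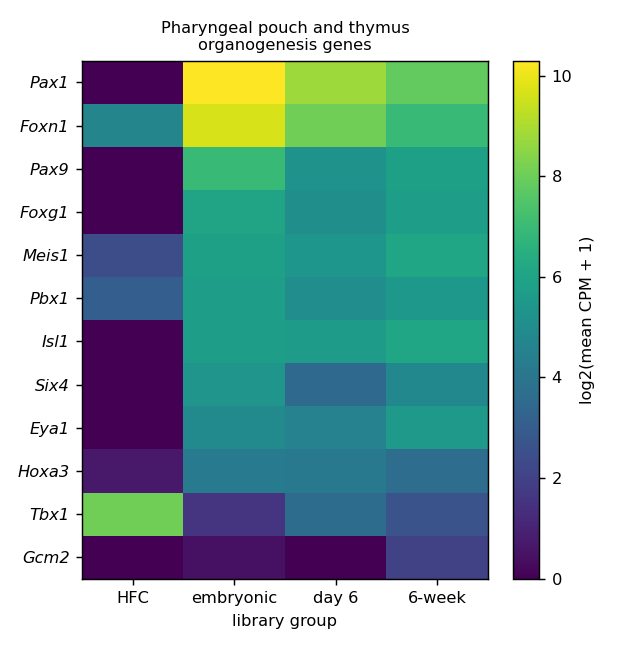
Mean level of 12 of the 13 pharyngeal pouch and thymus organogenesis genes in the table, in HFC (n = 3) and in embryonic (n = 4), day 6 (n = 6) and 6-week TEC (n = 20), as the log2 of mean CPM plus 1 in colour. Tbx1 is brightest in the HFC column, where 7 of the 12 genes shown are at 0, and dim in the TEC columns.

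Most partners and targets of Hr did not pass the test. Of 13 listed genes, all tested, 3 were higher and 2 lower in HFC against 6-week TEC, with a median log2 difference of 0.69 beside -0.75 over all genes. These shares were 23.1% higher and 15.4% lower, beside 4.67% and 19.3% of all genes. Sostdc1, a secreted Wnt and BMP inhibitor, stood at 261, 200 and 359 CPM in HFC against 0 to 106 CPM at 6 weeks (3.99 ± 1.08, limma adjusted p = 0.00731). Dkkl1, a dickkopf-like secreted protein, differed by 2.82 ± 0.96 (limma adjusted p = 0.0323). The corepressor Ncor1 fell by 1.52 on the log2 scale and the nuclear receptor gene Rora by 1.62 (limma, adjusted p = 0.00355 and 0.0369). Vdr, the vitamin D receptor that Hr binds, stood at 99.8, 122 and 115 CPM in HFC against 0 to 214 CPM at 6 weeks. It passed against day 6 TEC (3.74 ± 1.09, limma adjusted p = 0.0147) but not against 6-week TEC (1.87 ± 0.96, adjusted p = 0.154), and the difference between these was not tested. With median of ratios scaling the counts against 6-week TEC were 5 higher and 1 lower.

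The LIM domain cofactors that bind Lhx2 or compete for its partners showed no common direction. Of 6 listed genes, all tested, Lmo1 was higher and Lmo4 and Lmo2 were lower in HFC against 6-week TEC, with a median log2 difference of -0.92 beside -0.75 over all genes. The shares were 16.7% higher and 33.3% lower, beside 4.67% and 19.3% of all genes, and 6 genes are too few to set them apart. Ldb1, the main LIM domain binding protein, stood at 225, 289 and 272 CPM in HFC against 77.7 to 294 CPM at 6 weeks (0.62 ± 0.29, limma adjusted p = 0.123), and passed against embryonic TEC (1.09 ± 0.36, limma adjusted p = 0.0293). Lmo1 averaged 44.7 ± 22.5 CPM in HFC and 12.8 ± 12.6 CPM in 6-week TEC (SD, n = 3 and 20). With median of ratios scaling, Lmo1 and Ldb1 passed as higher and none as lower.

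Genes of hair differentiation were raised in part. Of 20 tested hair keratin, inner root sheath and trichohyalin genes 5 were higher and 1 lower in HFC against each age. Against 6-week TEC these shares were 25% higher and 5% lower, beside 4.67% and 19.3% of all genes. The inner root sheath keratins Krt27, Krt25 and Krt71 differed by 5.66 ± 0.74, 5.21 ± 0.83 and 5.60 ± 0.90 against 6-week TEC. Krt33b, Krt36, Krt81 and Krt86, keratins of the hair shaft, had no UMI in HFC. The list's median was 0.01 against 6-week TEC, beside -0.75 over all genes.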

How the data were processed

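RNA of sorted mouse TEC and HFC was profiled in 33 bulk MARS-seq libraries. The deposited table holds normalized UMI signal values per gene symbol, and each library's values sum to 100, so a value is a percent share of the library's UMIs. The submitters' processing notes list STAR 2.4.2a, HTSeq, DESeq2, cutadapt and bcl2fastq and the build mm10, with no role or order. How the authors scaled the table is not given in the sources used here.

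Low values were whole multiples of 1 step per library, so whole UMIs were recovered in 33 of 33 libraries (within 0.01). The plan had assumed scaled UMIs. Shares were multiplied by 1 constant to the median total of 570253 UMIs, and log2(value + 1) was fitted with limma 3.58.1 (trend, two-sided, R 4.3.3) over all 33 libraries in 11 groups of titles, each age being the mean of its groups. Genes with 5 or more scaled UMIs in at least 2 libraries were tested, and a Benjamini-Hochberg adjusted p below 0.05 was a call. Fold changes on this scale understate those of low genes. Levels are CPM from the same shares.

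Alternatives were robust moderation, pseudocounts of 0.5 and 5, a minimum mean of 10 or no filter, scaling by median of ratios, DESeq2 1.42.0 and edgeR 4.0.16 (quasi-likelihood) on recovered UMIs, a block on the replicate number, 1 group per age, the compared groups only, and leaving out each library. Leaving out 6-week libraries under 200000 UMIs, and day 6 against embryonic TEC, were chosen after seeing the data. The fit was tested on simulated data.

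The members and gene lists were chosen with earlier results of these data known. Genes named are the members, Foxn1, the 5 most significant raised and lowered other follicle regulators against 6-week TEC, up to 3 called genes of each list described, and the 5 genes most like each member, without predicted genes. Vdr, Ldb1, Pax1, Lef1, marker genes, gene families and genes with no UMI in HFC were named after their values were seen. Promoters are from RefSeq, which matched 2 of the 5 members, and were searched with Python 3.11.15. A few genes that meet the naming rule are not reported here.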

Additional observations from a re-analysis of the deposited data

Results flagged for a closer look

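Single libraries stood far from the others of their group, by the ratio of the gap to the range, for 11 of 35 member and group combinations. Chance gives about 1 in 20 for normally distributed values, a share that does not carry over to sparse UMIs or to titles that do not follow their markers. Of these, 5 concern Sox9. Its level was 365 CPM in the library titled 195 mTEC2 against 22.6 to 44.1 CPM in the other mTEC2 libraries, 242 CPM in 195 mTEC3 against 36.7 to 45.7 CPM, 220 CPM in 195 mTEC4 against 7.11 to 20.2 CPM, and 327 CPM in 196 cTEC against 34.4 to 83.3 CPM. At day 6 mTEC2 library 1 had 151 CPM against 13.0 to 29.9 CPM in the other 5. Trpm5 stood at 505 to 2026 CPM in these 5 libraries. Hr stood at 70.9 CPM, from 7 UMIs, in the library titled 195 mTEC1 against 0 to 7.58 CPM in the other mTEC1 libraries. Tbx1 stood at 5.3 CPM, from 6 UMIs, in E17 library 1 against 0.577 to 0.993 CPM in the other embryonic libraries.

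The other 4 rest on 1 to 3 UMIs against 0 in the rest of the group, where the gap equals the range by construction. They are Hoxc13 at 0.73 CPM and Lhx2 at 0.73 CPM in the library titled 189 mTEC4, Lhx2 at 3.58 CPM in 191 mTEC2 and Hoxc13 at 1.57 CPM in day 6 mTEC1 library 1.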

How the results depend on the processing

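Lhx2, Tbx1 and Hr passed as higher in HFC against each age under every alternative run, and no member's HFC difference changed direction. Hoxc13 did not pass with DESeq2 (log2 differences 10.4, 8.25 and 8.69 against embryonic, day 6 and 6-week TEC, adjusted p = 0.166, 0.245 and 0.115) and was not tested at a mean of 10. Sox9 lost its calls when certain single libraries were left out, against day 6 TEC only without HFC library 2. Counts of calls moved more. For HFC against 6-week TEC 3397 genes were called, and 1907 to 3906 when leaving out each library in turn. For HFC against day 6 TEC 2837 were called, 4424 with the compared groups only and 1719 to 2852 leaving out each library. For HFC against embryonic TEC 2823 were called, 6271 with the compared groups only and 1799 to 2078 leaving out each library. For embryonic against 6-week TEC 2053 were called, 3624 with edgeR, 4436 with DESeq2 and 936 to 2356 leaving out each library. For day 6 against 6-week TEC 1279 were called, 2115 with DESeq2, 2091 with the replicate block, 815 with the compared groups only, 1934 without 4 shallow 6-week libraries and 684 to 1551 leaving out each library. For E17 against E15 TEC 2 were called, 0 with a pseudocount of 5, median of ratios scaling, edgeR or any library left out, 1 with no filter, 24 with DESeq2, 16 with the replicate block and 505 with the compared groups only. For day 6 against embryonic TEC 496 were called, 1241 with DESeq2, 857 with the replicate block, 1846 with the compared groups only and 204 to 548 leaving out each library. The cause was not tested. Median of ratios scaling turned the HFC split against 6-week TEC to 1191 higher and 1877 lower, beside 662 and 2735, against day 6 TEC to 1059 and 1543, beside 622 and 2215, and against embryonic TEC to 1117 and 1267, beside 762 and 2061.

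Differences that changed sign were all between ages of TEC, near 0 in the main fit and uncalled throughout. For Tbx1 the reversed values with edgeR and DESeq2 were farther from 0. For day 6 against 6-week TEC, Lhx2 was 0.015, but -0.013 with a pseudocount of 5, -0.012 with median of ratios scaling, -0.043 with edgeR and -0.25 to 0.28 leaving out each library. Tbx1 was 0.20, but -0.93 with edgeR, -0.49 with DESeq2 and -0.12 to 0.51 leaving out each library, and Hoxc13 was 0.13, and -0.025 to 0.28 leaving out each library. For E17 against E15 TEC, Hr (0.12) ran from -0.21 to 0.44 leaving out each library, and for day 6 against embryonic TEC, Sox9 (-0.17) ran from -0.55 to 0.21. Replicate numbers were not taken as pairs in the main fit. Among the libraries not from 6 weeks, 4 of 30 same-numbered pairs correlated above 0.1. At 6 weeks 28 of 40 did, so the 20 libraries may not be independent of each other, as the main fit takes them to be. At 6 weeks same-numbered pairs had a median correlation of 0.31 (-0.23 to 0.81), against -0.16 over 120 other pairs. Of 20 6-week libraries, 16 were most like their own number. Among the libraries not from 6 weeks the median was -0.0034 (-0.31 to 0.22). Same-numbered 6-week libraries often shared a marker, such as Prss16 in those titled 196 mTEC1 to mTEC4. Number and cell population therefore cannot be told apart there, and the replicate block may also take out differences between populations. With the replicate block no member call in HFC changed, Foxn1 passed against 6-week TEC (adjusted p = 0.0136) and so did Hr in embryonic against 6-week TEC (0.0268). Of 30 TEC libraries, 28 held no Hoxc13 UMI and 22 no Lhx2 UMI, and the 1 to 3 UMIs in the others cannot be told from 0 at these depths.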

Other observations

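Keratins of the outer root sheath and upper follicle were raised in HFC on a list that holds no member. Of 16 tested genes 7 were higher and 1 lower in HFC against each age. Against 6-week TEC these shares were 43.8% higher and 6.25% lower, beside 4.67% and 19.3% of all genes. Krt79, a keratin of the upper follicle, stood at 7154, 3488 and 3562 CPM in HFC against 0 to 206 CPM at 6 weeks (7.05 ± 1.20, limma adjusted p = 5.99e-05). The lowered gene was Cd34, a marker of bulge stem cells that endothelial cells also express.

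Most signalling genes of the follicle did not pass the test. Of 16 tested Hedgehog, Wnt and BMP genes, Sostdc1 and Dkkl1 were higher and Bmp2, Axin2, Wnt4 and Hhip were lower in HFC against 6-week TEC. The lower genes made up 25% of the list beside 19.3% of all genes, and the higher ones 12.5% beside 4.67%. The list's median log2 difference was -1.13 beside -0.75 over all genes, and the counts of 2 higher and 4 lower were the same with median of ratios scaling. Early-response genes of dissociation summed to 3905, 7165 and 4547 CPM in HFC libraries 1, 2 and 3, against 1116 to 5671 CPM in embryonic, 2532 to 3719 CPM in day 6 and 3627 to 18516 CPM in 6-week TEC.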
